A study of Mus musculus with 4 samples.

Results

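The genes described here are the plasminogen activators Plau and Plat, the urokinase receptor Plaur, and the serpins Serpine2, Serpinb2 and Serpinb5. They were picked by gene symbol from a table of 37527 rows with 34147 distinct symbols, in which each of the 6 symbols occurred on 1 row. The study sequenced RNA of 4 lung cancer lines from mice, with 1 library each. The metastatic lines 238N1 and 482N1 came from lymph nodes, and the non-metastatic lines 368T1 and 394T4 came from the lung. All 4 lines were grown in culture from tumours that lentiviral Cre recombinase had started in 129S1/SvImJ mice with p53flox/flox alleles, so that by design both groups share the Cre-deleted p53 alleles. The labels do not say whether a line is 1 clone or which animals gave which lines, and p-values here measure only the spread between these cultures.

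Plasminogen activators are serine proteases that cut the zymogen plasminogen into plasmin, a broad protease that degrades fibrin and pericellular matrix and activates other proteases. Urokinase, the product of Plau, does this mainly at the cell surface, held there by its glycolipid-anchored receptor, the product of Plaur, while tissue-type activator, the product of Plat, is best known for dissolving clots. Serpins block these proteases by acting as bait that the protease cuts and is then trapped by. In carcinomas the system is known for its part in invasion and tissue remodelling.

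RNA levels are given as FPKM, which corrects fragment numbers for the length of a transcript and the depth of a library, so that levels may be set side by side between genes of a line. FPKM summed to 924354 to 2279794 over the libraries and to 413128 to 492076 over protein-coding genes, and a single non-coding row took 18.7% to 62.4% of the sums. Read totals were unknown. From the steps of the smallest values 238N1 was estimated to be the deepest library, with the others at 0.55 to 0.608 of its depth. Of the low genes compared, 162 of 952 in 482N1 held the line's ratio to 238N1 within 1%. In 368T1 130 of 764 did, and in 394T4 130 of 761. Trp53, the floxed gene, had 1.57 FPKM in 238N1 and a listed 0 in 482N1, against a listed 0 in 368T1 and 2.74 FPKM in 394T4. All 6 epithelial markers checked exceeded 1 FPKM in every line, but they differed between the groups. They summed to 2916 FPKM in 238N1 and 1768 in 482N1, against 3941 in 368T1 and 3668 in 394T4. In 5 of the 6 each metastatic line was below each non-metastatic line. That pattern was held by 26.9% of all genes with a mean of at least 1 FPKM. The 7 leukocyte markers in the table summed to 2.01 to 2.83 FPKM a line, most of it Cd68 at 1.78 to 2.13 FPKM, while 5 of the 7, Ptprc among them, were at 0 throughout. The 4 endothelial markers summed to 0.909 FPKM or less. The 8 stromal markers summed to 0.678 FPKM in 238N1 and 41.0 in 482N1, against 2.48 in 368T1 and 4.30 in 394T4, with Col1a2 and Dcn at 0 in every line. In 482N1 5 of the 8 stromal markers reached 1 FPKM, against at most 1 in any other line.

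RefSeq promoter sequences (build GRCm38.p6) were at hand for 4 of the 6 genes, Plaur, Serpine2, Serpinb2 and Serpinb5, and not for Plau and Plat. Shown are the 250 bases before the transcription start of the receptor gene, whose RNA was abundant in every line, and of the clade B serpins, whose RNA stood lower in both metastatic lines. Capitals mark the letters TGANTCA, the core that transcription factors of the AP-1 family bind, and AGGAAG, a core bound by many members of the large ETS family of factors. They also mark the GC box, spelled GGGCGG, which Sp1 is known to bind in promoters of many genes without tissue restriction, and the TATA box, spelled TATAAA, which positions the start of transcription. Each motif was searched on both strands. The Plaur window is chr7:24462233-24462482 on the plus strand, the Serpinb2 window, at the first of its 2 starts, chr1:107511173-107511422 on the plus strand, and the Serpinb5 window chr1:106860925-106861174 on the plus strand.
Plaur: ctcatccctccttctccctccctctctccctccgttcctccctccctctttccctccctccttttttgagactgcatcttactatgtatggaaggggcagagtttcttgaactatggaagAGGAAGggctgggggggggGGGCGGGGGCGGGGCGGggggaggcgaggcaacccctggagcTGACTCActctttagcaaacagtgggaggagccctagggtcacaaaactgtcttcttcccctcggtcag
Serpinb2: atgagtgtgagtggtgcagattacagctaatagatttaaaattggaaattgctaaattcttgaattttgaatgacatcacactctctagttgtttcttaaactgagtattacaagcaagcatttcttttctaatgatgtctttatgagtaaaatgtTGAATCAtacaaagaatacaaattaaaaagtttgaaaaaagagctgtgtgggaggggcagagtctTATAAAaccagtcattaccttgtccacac
Serpinb5: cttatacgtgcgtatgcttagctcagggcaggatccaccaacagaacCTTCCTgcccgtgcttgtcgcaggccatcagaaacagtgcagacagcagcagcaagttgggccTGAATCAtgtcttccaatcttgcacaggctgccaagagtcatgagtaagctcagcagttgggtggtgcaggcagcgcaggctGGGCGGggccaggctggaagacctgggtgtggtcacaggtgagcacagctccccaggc

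TGANTCA occurred once in each of these windows, beginning 69 bases before the start of Plaur, 94 before that of Serpinb2 and 140 before that of Serpinb5, and not in the Serpine2 window. Of all 32851 RefSeq promoter windows of this length, 6.75% held it. Serpinb2 alone of the 4 had a TATA box, 29 bases before the start, which 12.4% of all windows held, and its window was 32.4% G and C against a median of 52.4% over all windows. The Serpine2 window was the opposite in composition, with 78.8% G and C and 6 GC boxes, while Plaur had 3 GC boxes and Serpinb5 had 1, and 32.7% of all windows held at least 1. AGGAAG was found in Plaur, Serpine2 and Serpinb5, as in 29.5% of all windows. These are matches of letters and not measured binding sites.

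The comparison asked which of these genes differed between metastatic and non-metastatic lines. Mean urokinase RNA in the metastatic lines was 0.0996 of that in the non-metastatic lines, tissue-type activator and receptor RNA differed little, Serpinb2 was lower and Serpinb5 was listed at 0 in the metastatic lines. None of the 6 genes passed the test, which was limma on log2(FPKM + 1) over the 12425 genes with a mean of at least 1 FPKM, with Benjamini-Hochberg adjusted p under 0.05. Over all genes 0.161% were called, 0.113% as higher and 0.0483% as lower, and of the 6 genes 0 were called. Serpinb5 reached that mean through the non-metastatic lines alone, so its direction was tied to its being tested and it is left out of the counts that follow. At an unadjusted p under 0.05, 2 of the other 5 genes were lower (Plau and Serpinb2), where 8.68% of all genes were, and 0 of the 5 were higher, where 5.7% of all genes were. In 3 of the 5 genes each metastatic line was below each non-metastatic line, a pattern held by 26.9% of all genes, and in 1 of the 5 each was above, a pattern held by 28.3%. Scaling moves these counts and their background. After scaling to the library sum 1 of the 5 was lower at an unadjusted p under 0.05 (Plau, with Serpinb2 lost), and after median centring 3 were (Plau, Plaur and Serpinb2). Over all genes at an unadjusted p under 0.05 there were 708 higher and 1079 lower genes on the deposited values. After median centring there were 602 higher and 1250 lower genes. Scaling to the protein-coding sum gave 1497 higher and 469 lower genes, and scaling to the library sum 943 higher and 204 lower genes. With 2 lines a group an exact two-sided permutation test could not go below p = 0.333, so none is given for single genes.

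**Figure D1:**
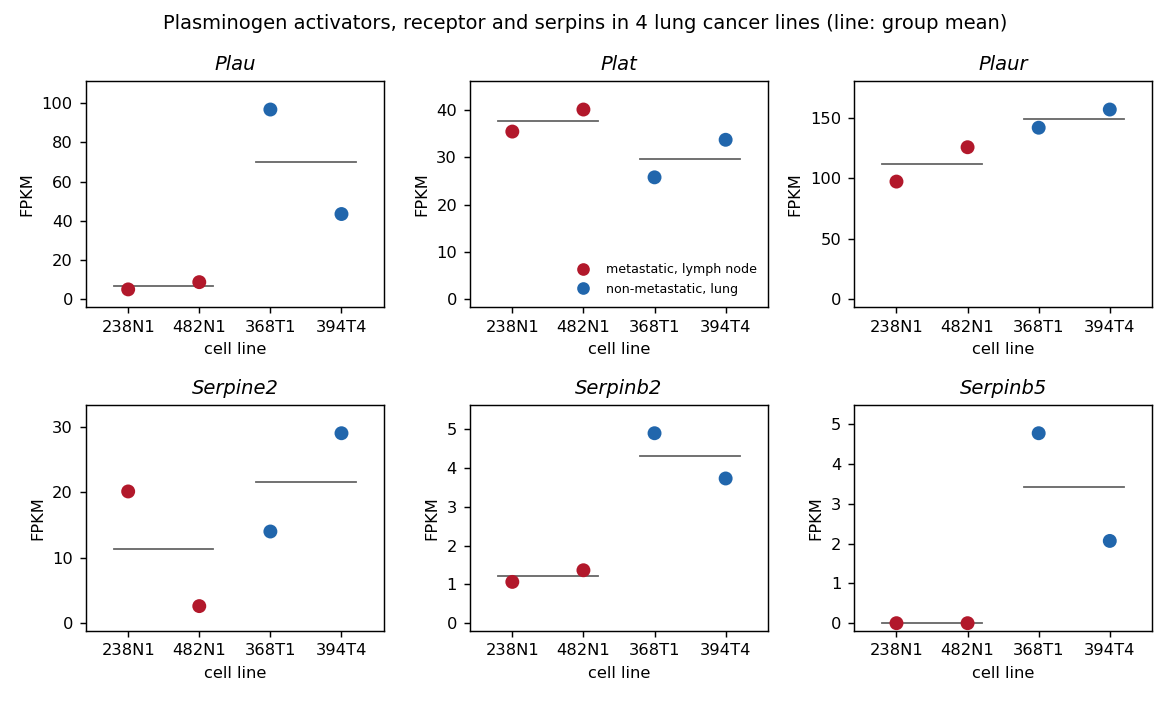
FPKM (linear vertical axis, a separate scale in each panel) of the 6 genes in each line, with metastatic lines in red, non-metastatic lines in blue and a horizontal line at each group's mean. Plau stood at 5.14 and 8.84 FPKM in the metastatic lines against 96.8 and 43.5 FPKM in the non-metastatic lines, and Serpine2 was the gene whose groups overlapped.

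Plau (ENSMUSG00000021822, chromosome 14, 21655884 to 21662610, mm9, plus strand) had 5.14 FPKM in 238N1 and 8.84 in 482N1, against 96.8 in 368T1 and 43.5 in 394T4. Both metastatic lines were far below both lung lines, and the lung lines differed from each other by 1.13 on the log2(FPKM + 1) scale against a gap of 2.18 between the groups. The log2 fold change of FPKM + 1 was -3.09 (SE 0.48, 95% interval -4.39 to -1.78, adjusted p = 0.277). Of the 12425 genes 67, or 0.539%, had a more negative fold change. In RNA from a whole culture, fewer cells with a transcript and less of it in each cell cannot be told apart. Plau RNA exceeded that of 27.5% and 38.8% of the genes tested in 238N1 and 482N1, and of 91.3% and 80.6% in 368T1 and 394T4. It passed the test in a single alternative fit, after scaling to the library sum (log2 fold change -2.49, SE 0.73, adjusted p = 0.0274). In that fit the SE was much alike in all members, from 0.68 for Serpinb5 to 0.74 for Serpine2. The call therefore rests mainly on spread pooled over genes and not on that of Plau. A single non-coding row took 18.7% to 62.4% of the sums used for this scaling. That scaling called 281 higher and 97 lower genes over all genes, against 14 and 6 on the deposited values. Over the alternatives that kept all 4 lines, the adjusted p of Plau ranged from 0.0274 to 0.324. Most epithelial markers were lower in value in the same lines, to unlike degrees. Epcam had 4.13 and 4.76 FPKM in 238N1 and 482N1 against 54.0 and 34.3 in 368T1 and 394T4 (log2 fold change -3.02). Krt19 (-1.11), Krt8 (-0.63) and Krt18 (-0.49) differed less. Cdh1 overlapped between the groups, with 174 and 104 FPKM in 238N1 and 482N1 against 109 and 155 in 368T1 and 394T4 (0.05). Krt7 was low in 482N1 alone, at 350 FPKM in 238N1 and 6.90 in 482N1, against 456 in 368T1 and 480.0 in 394T4. The 8 stromal markers summed to 0.678 and 41.0 FPKM in the metastatic lines against 2.48 and 4.30 in the lung lines. The part of these differences in the values of Plau and the other 5 genes was not tested.

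Plat (ENSMUSG00000031538, chromosome 8, 23868216 to 23893319, mm9, plus strand) had 35.4 FPKM in 238N1 and 40.1 in 482N1, against 25.8 in 368T1 and 33.7 in 394T4. The metastatic lines were the higher, without overlap, but 238N1 and 394T4 were almost level. The log2 fold change was 0.34 (SE 0.20, 95% interval -0.21 to 0.90, adjusted p = 0.433), and the interval spans 0.

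Plaur (ENSMUSG00000046223, chromosome 7, 25247519 to 25260892, mm9, plus strand) was the most abundant of the 6 genes in every line, at 97.3 FPKM in 238N1 and 126 in 482N1, against 142 in 368T1 and 157 in 394T4. Its RNA exceeded that of at least 92.6% of the genes tested in each line. The metastatic lines lay slightly below the lung lines, with a log2 fold change of -0.43 (SE 0.19, 95% interval -0.94 to 0.08, adjusted p = 0.367). The direction turned to 0.21 after scaling to the library sum, a scaling that moved the median of all genes to 0.61, and relative to that median Plaur stood at -0.40.

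The receptor was thus in excess of its ligand at the RNA level in every line, to different degrees. Plau FPKM was 0.0529 of Plaur FPKM in 238N1 and 0.0704 in 482N1, against 0.683 in 368T1 and 0.278 in 394T4. The leading activator RNA also differed between groups. Plau made up 12.7% and 18.1% of the summed Plau and Plat FPKM in 238N1 and 482N1, against 79.0% in 368T1 and 56.4% in 394T4, so Plat was the larger activator RNA in both metastatic lines and Plau in both lung lines. These ratios rest on 1 library a line and were not tested.

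Serpine2 (ENSMUSG00000026249, chromosome 1, 79790772 to 79855271, mm9, minus strand) encodes protease nexin 1, a secreted inhibitor of thrombin, urokinase and plasmin. It had 20.2 FPKM in 238N1 and 2.61 in 482N1, against 14.0 in 368T1 and 29.1 in 394T4. Here 482N1 stood apart at the low end and 238N1 lay between the lung lines, so the groups overlapped. The 2 metastatic lines differed by 2.55 on the log2(FPKM + 1) scale, more than the group difference of -1.28 (SE 0.96, 95% interval -3.88 to 1.32, adjusted p = 0.491). Without 482N1 the fold change was -0.01, and without 238N1 it was -2.56. 482N1 was also the line with 41.0 FPKM of stromal markers, whose part in the Serpine2 value was not tested.

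Serpinb2 (ENSMUSG00000062345, chromosome 1, 109408000 to 109432055, mm9, plus strand) encodes plasminogen activator inhibitor 2, a largely intracellular serpin that can inhibit urokinase. It was low in every line, at 1.06 FPKM in 238N1 and 1.36 in 482N1, against 4.90 in 368T1 and 3.73 in 394T4. The lines of each group were close to each other and the groups did not overlap. The log2 fold change was -1.26 (SE 0.29, 95% interval -2.05 to -0.47, adjusted p = 0.332), and 2.81% of all genes tested had a more negative one. The gene overlaps Serpinb10-ps on the same strand, which was listed at 0 in every line.

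Serpinb5 (ENSMUSG00000067006, chromosome 1, 108757750 to 108779925, mm9, plus strand) encodes maspin, an epithelial serpin that does not act as a classical protease inhibitor. It was listed at 0 in 238N1 and 482N1, against 4.78 FPKM in 368T1 and 2.07 in 394T4. An exact 0 in these files may be a failed estimate, since 313 rows were at 0 in some line with at least 20 FPKM in another, so no fold is given. On the log2(FPKM + 1) scale the difference of the group means was -2.07 (adjusted p = 0.328), which is given as a description, since the gene entered the test only through the lines where it is above 0. Of the genes tested, 81 were at 0 in both metastatic lines.

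**Figure D2:**
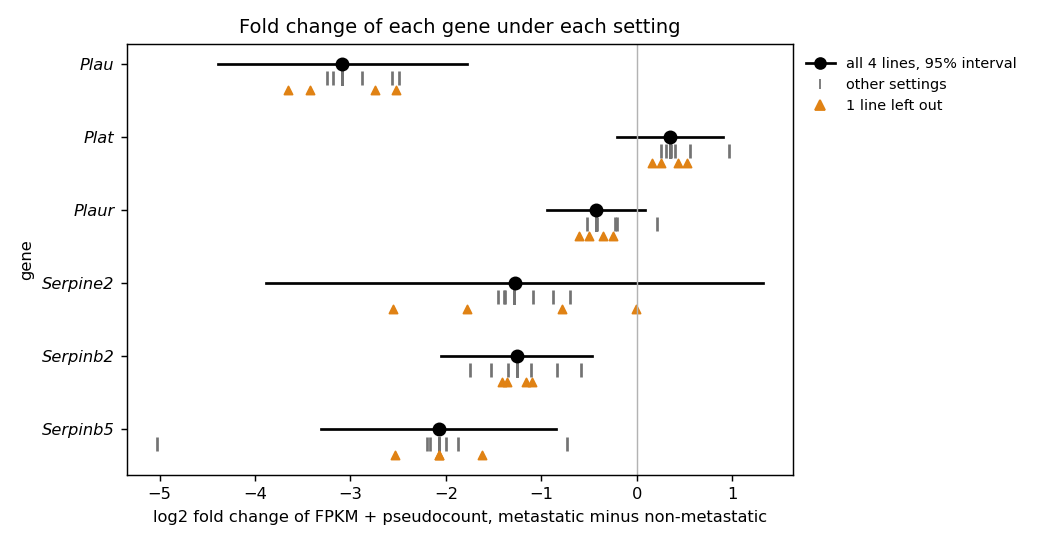
Log2 fold change (horizontal axis, metastatic minus non-metastatic) of the 6 genes. Black points and bars give the limma fit of all 4 lines on log2(FPKM + 1) with its 95% interval, grey ticks the other settings and orange triangles the fits without 1 line. The intervals of Plau and Serpinb2 lie below 0, although neither passed after adjustment, that of Serpinb5 rests on listed zeros and supports nothing, and Serpine2 ranges from -2.56 to -0.01 as single lines are left out.

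Serpinb5 and Serpinb2 lie in the clade B serpin cluster on chromosome 1, 628 kb apart. The 8 clade B genes annotated between them were at or near 0. Of these, 7 were listed at 0 in every line and Serpinb11 reached 0.118 FPKM in 394T4. Serpinb8, the next gene beyond Serpinb2, did not share its pattern, with 1.33 FPKM in 238N1 and 4.46 in 482N1, against 3.73 in 368T1 and 2.61 in 394T4 (log2 fold change -0.21, SE 0.51, adjusted p = 0.833). The direct neighbours of Plau were also unlike it. Camk2g, a calcium-dependent kinase gene, had 12.2 and 12.6 FPKM in 238N1 and 482N1 against 11.0 and 11.4 in 368T1 and 394T4. Vcl, which encodes the adhesion protein vinculin, had 70.9 and 77.0 FPKM in the metastatic lines against 40.9 and 100.2 in the lung lines.

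The inhibitors Serpine2 and Serpinb2 were set beside the activators within each line. Together they gave 21.2 FPKM in 238N1 and 3.98 in 482N1, against 18.9 in 368T1 and 32.8 in 394T4, so that 482N1 was low and the other lines were closer. Serpine2 supplied most of this sum in each line, from 94.99% in 238N1 down to 65.7% in 482N1. Plau FPKM was 0.242 of the sum in 238N1 and 2.22 times it in 482N1, against 5.11 times in 368T1 and 1.33 times in 394T4. By this ratio 482N1 lay between the lung lines and 238N1 below every other line. Plau and Plat together were 1.91 times the inhibitor sum in 238N1 and 12.3 times in 482N1, against 6.48 in 368T1 and 2.35 in 394T4. With both activators 482N1 was thus the highest line and 238N1 again the lowest. These ratios cover only these inhibitors and were not tested.

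**Figure D3:**
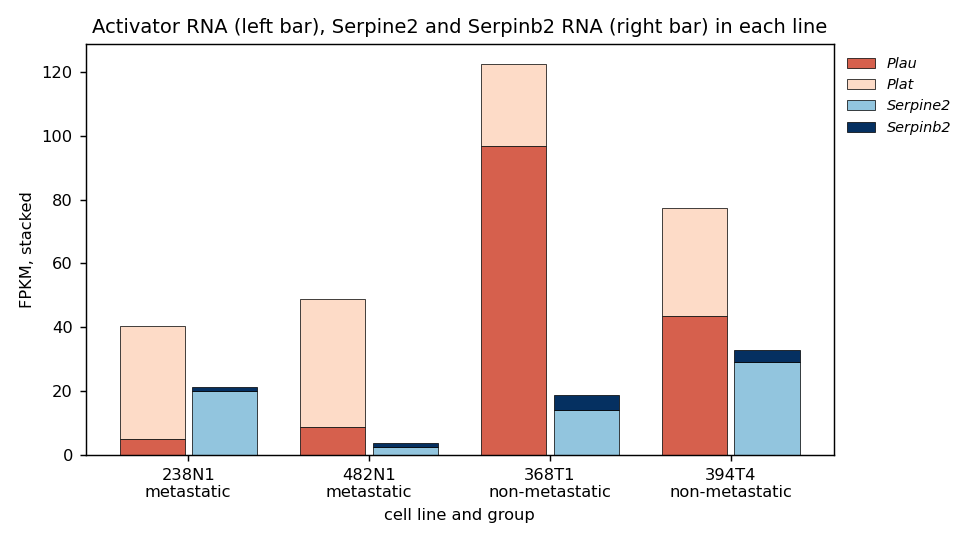
Stacked FPKM (vertical axis) of the activators Plau and Plat (left bar) and of the inhibitors Serpine2 and Serpinb2 (right bar) in each line. Plau is the thin part of the activator bar in 238N1 and 482N1 and the larger part in 368T1 and 394T4, and the inhibitor bar is shortest in 482N1.

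Plg, the gene of plasminogen itself, was listed at 0 in every line. Of 10 plasminogen and plasminogen receptor genes in the table, 7 were tested and none passed (3 with a positive and 4 with a negative fold change, median -0.04, against 0.05 over all genes tested). Over all genes tested, 6638 fold changes were positive and 5787 negative, the background for this list and those below. Anxa2 and S100a10, which together form a surface receptor for plasminogen, were abundant throughout, with Anxa2 at 1127 and 1695 FPKM in 238N1 and 482N1 against 1429 and 1422 in 368T1 and 394T4. Eno1, a glycolytic enzyme that also binds plasminogen at the surface, stood at 123 and 112 FPKM against 276 and 182 (log2 fold change -0.92, SE 0.25, adjusted p = 0.335).

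Among 19 receptors and partners of urokinase, 15 were tested and none passed (9 positive, 6 negative, median 0.41). Lrp1, the endocytic receptor that clears activator and inhibitor complexes, had 5.75 FPKM in 238N1 and 79.8 in 482N1, against 2.96 in 368T1 and 4.36 in 394T4. It was high in 482N1 alone, the line with the most stromal marker RNA, whose part in this value was not tested. Vldlr, another clearance receptor, had 5.34 and 5.66 FPKM in the metastatic lines against 2.12 and 1.90 in the lung lines (log2 fold change 1.11, SE 0.24, adjusted p = 0.328). Lrp2, a large receptor of the same family, had 0.193 and 0.551 FPKM against 1.31 and 4.48. Lrp2 and Sorl1 reached a mean of 1 FPKM through the lung lines alone, so their negative direction was tied to their being tested. Both remain in the counts of this list.

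Other serpins and related inhibitors of fibrinolysis were mostly low, and 3 of 14 were tested (1 positive and 2 negative, median -0.04), none of which passed. Serpinh1, a collagen chaperone with a serpin fold, was even across lines, at 142 and 157 FPKM in 238N1 and 482N1 against 151 and 157 in 368T1 and 394T4. Serpinf1, pigment epithelium-derived factor, had 9.02 FPKM in 482N1 and was at 0 in every other line. This 1 positive gene was tested through 482N1 alone, so its direction was tied to its being tested. Of 24 other clade B serpins in the table, 5 were tested and none passed (3 positive, 2 negative, median 0.25). Serpinb6b had 38.7 and 34.0 FPKM in 238N1 and 482N1 against 8.92 and 18.9 in 368T1 and 394T4 (log2 fold change 1.41, SE 0.38, adjusted p = 0.335), the opposite direction from Serpinb2. Serpinb6a, the most abundant clade B serpin in the table, had 291 and 310 FPKM against 249 and 255. Serpinb9, an inhibitor of granzyme B, had 10.7 and 6.37 FPKM in the metastatic lines against 0 in 368T1 and 4.76 in 394T4. Reads may be split between near-identical members of the Serpinb6 and Serpinb9 families, so their values are uncertain.

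Plasmin substrates and the proteases it can activate gave 12 positive and 5 negative fold changes among 17 tested members (median 0.37), and none passed. Over all genes tested, 6638 were positive and 5787 negative. Tgfb1, whose latent protein plasmin can release, had 58.1 and 87.7 FPKM in 238N1 and 482N1 against 27.1 and 32.2 in 368T1 and 394T4 (log2 fold change 1.25, SE 0.26, adjusted p = 0.328). Mmp2, a gelatinase, had 8.38 FPKM in 482N1 and at most 0.165 in any other line. It was tested through 482N1 alone, so its place among the positive genes was tied to its being tested. Of 13 tested AP-1 and ETS factor genes, families known to act on the urokinase enhancer, 5 were positive and 8 negative (median -0.27), and none passed. Fosl1, an AP-1 subunit, had 20.6 and 41.8 FPKM in the metastatic lines against 62.1 and 45.6 in the lung lines (log2 fold change -0.83, SE 0.40, adjusted p = 0.381). Elf3, an epithelial ETS factor, had 12.9 and 6.99 FPKM against 21.9 and 17.1. Ehf, another epithelial ETS factor, had 2.90 FPKM in 238N1 and 0 in 482N1, against 1.93 in 368T1 and 2.96 in 394T4.

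**Figure D4:**
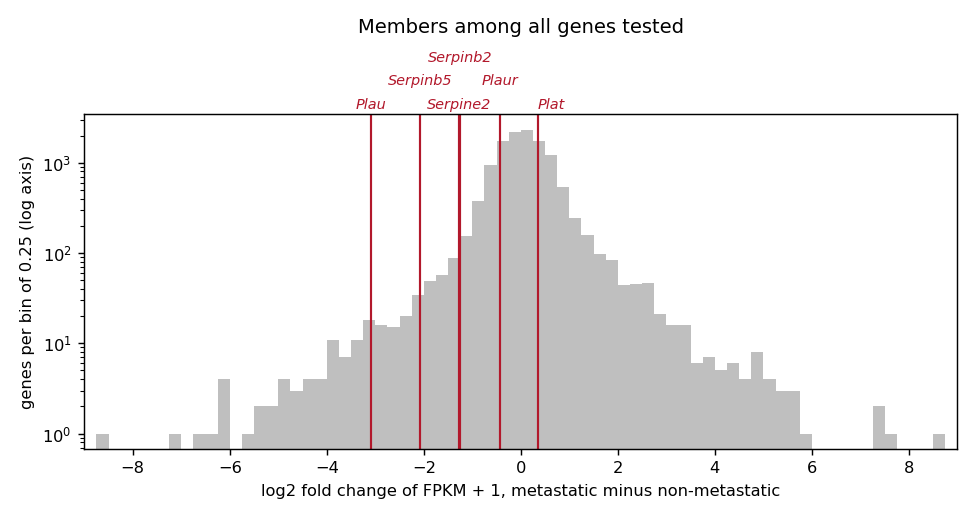
Number of genes (vertical log axis, bins of 0.25) by log2 fold change of FPKM + 1, metastatic minus non-metastatic, for the 12425 genes tested, with the 6 genes as red lines. Plau lies in the left tail, where 0.539% of genes are more negative, while 18.3% of genes are more negative than Plaur and 71.0% are more negative than Plat.

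Genes with like profiles were sought by the Euclidean distance between log2(FPKM + 1) values centred on their mean over the 4 lines, among 9128 named genes above 0 in every line. The nearest to Plau was Epcam, an epithelial adhesion gene, at a distance of 0.508, with 4.13 and 4.76 FPKM in 238N1 and 482N1 against 54.0 and 34.3 in 368T1 and 394T4. Bspry and Ckb, a creatine kinase gene, followed at 0.632 and 0.758. Serpine2 was nearest to O3far1 (0.486), Igsf5 (0.669) and Foxa2 (0.691), and Foxa2, a lung epithelial transcription factor, had 40.6 FPKM in 238N1 and 7.77 in 482N1, against 37.0 in 368T1 and 40.6 in 394T4. Serpinb5 was nearest to Entpd3 (0.197), Smagp (0.319) and Ppbp (0.335). Its profile holds listed zeros that may be failed estimates, and genes sharing those zeros were not among the candidates. The nearest genes of Serpinb2 were Fabp5l2, Trmt61a and Metrnl, those of Plat Cdk13, Gtpbp2 and Nacc2, and those of Plaur Med16, Dtnbp1 and Ankrd52, all within 0.12. These distances cover 4 libraries and carry no test.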

How the data were processed

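Per the labels and the series text, total RNA from cultured lines was made into Illumina TruSeq libraries, read as pairs of 100 bp and aligned to mm9. The submitters' processing notes name TopHat. Which tool and annotation gave the gene values is not stated in the labels or headers. The authors deposited FPKM values, per the file headers, in 1 column a line, with no stated scaling between libraries.

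Of rows with the same symbol, that of highest mean FPKM was kept. Positions came from GENCODE vM1 on NCBIM37, the assembly of mm9, which held the IDs of 99.01% of rows. Differences were fitted with limma 3.58.1 (variance trend, two-sided, R 4.3.3) on log2(FPKM + 1) for 12425 genes with a mean of at least 1 FPKM, all 4 libraries, no covariate, Benjamini-Hochberg adjustment over all genes. This scale understates the change of low genes. The code was tested on simulated data. Without read counts, counting intervals and detection limits cannot be given. Relative depth came from the commonest ratio (within 1%) of values in genes averaging under 0.08 FPKM.

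The genes, lists and tests were chosen with earlier results of these data known. By rule the text named all 6 genes, the 3 tested members of each list furthest from no change, and the 3 nearest profiles of each gene. Some genes under this rule, and part of the genotype, are not reported here. A few further genes (Anxa2, Plg, Serpinb8, Serpinb11 and the neighbours of Plau) were named after their values were seen. The alternatives were another pseudocount, filter, scaling or variance model, leaving out genes at 0, adding up rows of a symbol, and leaving out each library.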

Additional observations from a re-analysis of the deposited data

How the results depend on the processing

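None of the 6 genes passed in any of the alternatives run except Plau after scaling to the library sum (1 lower gene called, log2 fold change -2.49). Plau, Plat, Serpine2, Serpinb2 and Serpinb5 kept their direction in every alternative that gave a value. Plaur was reversed after scaling to the library sum, at 0.21. Serpinb2 and Serpinb5 averaged under 5 FPKM, so a mean of at least 5 FPKM left them untested. With that filter 1 gene, Plau, was lower at an unadjusted p under 0.05, as were 981 of all 9225 genes. Leaving out genes at 0 removed Serpinb5. Low values depend on the pseudocount: Serpinb5 stood at -5.02 with 0.1 and -0.73 with 5, and Serpinb2 at -1.74 and -0.58. Leaving out 1 library gave -3.65 to -2.52 for Plau, 0.16 to 0.53 for Plat, -0.61 to -0.24 for Plaur, -2.56 to -0.01 for Serpine2, -1.42 to -1.10 for Serpinb2 and -2.53 to -1.62 for Serpinb5.

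Against 14 higher and 6 lower genes called over all genes, there were 281 and 97 with libraries scaled to their sums, 1 and 1 with no filter, 7 and 3 at a mean of at least 5 FPKM, and 31 and 13 without the variance trend. The robust fit gave 15 lower genes, and leaving out genes at 0 gave 0 higher genes (989 at an unadjusted p under 0.05). Leaving out any 1 library gave 0 to 0 genes in each direction, with 310 to 1249 higher and 264 to 1277 lower genes at an unadjusted p under 0.05, the lone line of a group being assumed to vary like the others. At that threshold there were 204 lower genes after scaling to the library sum, and 1497 higher and 469 lower genes after scaling to the protein-coding sum. The cause of these shifts was not tested. The median log2 fold change of all genes was 0.61 after the first scaling and 0.24 after the second. No paired analysis was possible because the labels give the lines no replicate numbers shared between groups.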

Other observations

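Several relatives of Plaur in the Ly6 and uPAR domain family, small surface proteins mostly held by a glycolipid anchor, stood lower in the metastatic lines, as values and not as calls. The table held 18 such genes, of which 7 were tested, 2 with a positive and 5 with a negative fold change (median log2 fold change -1.19, against 0.05 over all genes tested), and none passed limma's test after Benjamini-Hochberg adjustment. Each metastatic line was below each non-metastatic line in 4 of the 7, a pattern held by 26.9% of all genes. Psca, a surface antigen of epithelial tumours, had 30.0 FPKM in 238N1 and 9.40 in 482N1, against 121 in 368T1 and 86.0 in 394T4 (log2 fold change -2.52, SE 0.59, adjusted p = 0.332). Ly6a, known as Sca-1, had 21.6 and 2.20 FPKM in the metastatic lines against 118 and 59.0 in the non-metastatic lines (-3.31, SE 1.04, adjusted p = 0.335). Ly6c1 had 5.56 and 0.213 FPKM against 25.2 and 21.3, and reads of this gene may be shared with close relatives. In these 3 genes 482N1 was the lowest line.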
